A study of Mus musculus with 12 samples.

Results

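Fatty acid uptake and oxidation is represented here by 36 genes, chosen by their known roles in the entry of fatty acids into the muscle fibre (5 genes), activation with coenzyme A (2), the carnitine shuttle (4), mitochondrial and peroxisomal beta-oxidation (17), electron transfer from beta-oxidation to the respiratory chain (3) and side reactions and control (5). Of the 36, 34 had a probe on the array by the platform annotation, and 30 had enough usable values to be tested, among 11374 genes tested in all. The data are ratios of 2 RNA samples hybridised to 1 Agilent array, and every value below is a log2 ratio relative to the median gene of the same array. A log2 ratio of -1 is therefore a fall by 1 doubling step relative to that gene, and levels of different genes were not compared.

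In skeletal muscle, long-chain fatty acids are taken up through transporters, activated to acyl-coenzyme A and carried into mitochondria as acyl-carnitines. Beta-oxidation then shortens the chain in repeated rounds of dehydrogenation, hydration, a second dehydrogenation and thiolysis, and the electrons of the first dehydrogenation reach ubiquinone through the electron transfer flavoprotein and its dehydrogenase. The coactivators PGC-1alpha (gene Ppargc1a) and PGC-1beta (gene Ppargc1b) do not bind DNA themselves and work with nuclear receptors such as PPARs and estrogen-related receptors on genes of this pathway.

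The RNA came from gastrocnemius, a calf muscle, of male mice aged 12 weeks on a C57BL6/J x sv129 background. Control mice were PGC-1beta f/f, so they carry the floxed allele without Cre; PGC-1alpha -/- mice lack PGC-1alpha in the whole body, PGC-1betaf/f/Mlc1fCre mice delete PGC-1beta where the myosin light chain 1f Cre transgene is active, which is in skeletal muscle fibres and not in the other cells of the muscle, while double knockouts, PGC-1alpha-/- beta f/f/Mlc1fCre, combine both. By their titles, control RNA was the reference for 3 arrays of each single knockout and 3 of the double knockout, and 3 more arrays set the double directly against the alpha knockout. Below, these groups are named alpha, beta, double and direct, with the replicate number of each array. Cy5 labelled the knockout (on direct arrays, the double knockout) and Cy3 its reference throughout.

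Several properties of the 12 arrays bear on all values. On 6 arrays the title and the channel labels disagree on the knockout, and groups follow the titles, because the authors' deposited group means equalled the means by title for 100% of 13298 probes. This held for the beta group only without beta 3. Beta 3 correlated at -0.44 over all probes with beta 1 and with alpha 1, and it was left out of the tests, so the beta group has 2 arrays. Among the other arrays against control RNA, double 3 correlated at -0.33 with alpha 1 and at -0.31 with beta 1, and the sign of every ratio follows the dyes. Alpha and direct arrays also correlated below 0 in every pair, at -0.61 to -0.29. Between 48.6% and 70.6% of probes gave a usable ratio on the other 11 arrays. Each array's values carry 1 scaling factor, which was 0.194 to 0.498 on double 1, the 3 alpha arrays and the 2 beta arrays in use, 1.13 on double 2 and 3.31 to 6.57 on double 3 and the direct arrays, so the factor and the groups cannot be told apart for the alpha, beta and direct arrays. Ppargc1a itself fell by 1.46 on the alpha arrays (SE 0.34, limma adjusted p = 0.0177) and was at -1.30 on the double arrays (adjusted p = 0.0762), whereas Ppargc1b was at 0.76 on beta 1 and beta 2 (adjusted p = 0.305) and at 0.31 on the double arrays (adjusted p = 0.622). Against control RNA the beta knockout was therefore not visible in its own transcript. Where the Ppargc1b probes lie relative to the deletion is unknown here. On the direct arrays Ppargc1b fell (-1.11, limma adjusted p = 0.0306). With the log2 factor as a covariate in the fit, Ppargc1b was not called there (-1.17, adjusted p = 0.180). On the alpha arrays Ppargc1b rose (1.13, limma adjusted p = 0.0251). With the factor Ppargc1b was at 1.18 and Ppargc1a at -1.63 on the alpha arrays, neither called (adjusted p = 0.134 and 0.0907). Ppargc1a was at 0.80 on the direct arrays (adjusted p = 0.140), although both knockouts there lack PGC-1alpha. The labels do not say whether the arrays are separate mice, so p-values measure the spread between arrays, and a ratio against 0 leaves out the spread between controls. Whole muscle also holds other cells, and fewer fibres and less RNA per fibre cannot be told apart.

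The 4 members that fell on the double arrays were Cpt2, Etfdh, Acadl and Acadvl, and the 250 bases before the start of each gene are printed because PGC-1 coactivators act at promoters through DNA-binding factors. The sequences are from RefSeq (GRCm38.p6), 5′ to 3′ along the gene. Capitals mark matches, on either strand, to CCGGAAG, a core motif of ETS factors such as GABPA, to GCGCATG, a part of the NRF1 palindrome that matches itself with an overlap where the palindrome is whole, or to AAGGTCA, the core bound by estrogen-related receptors.
Cpt2, chr4:107923590-107923839, minus strand: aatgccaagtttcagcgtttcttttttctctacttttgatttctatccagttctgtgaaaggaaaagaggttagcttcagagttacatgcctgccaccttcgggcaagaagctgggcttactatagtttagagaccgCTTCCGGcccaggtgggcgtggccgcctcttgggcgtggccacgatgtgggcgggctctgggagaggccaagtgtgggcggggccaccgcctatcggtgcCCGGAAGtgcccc
Etfdh, chr3:79628768-79629017, minus strand: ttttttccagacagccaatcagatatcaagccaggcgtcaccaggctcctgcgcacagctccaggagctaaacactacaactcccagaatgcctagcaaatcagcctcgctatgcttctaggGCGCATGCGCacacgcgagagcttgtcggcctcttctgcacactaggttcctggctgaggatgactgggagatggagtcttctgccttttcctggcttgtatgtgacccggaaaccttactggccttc
Acadl, chr1:66863310-66863559, minus strand: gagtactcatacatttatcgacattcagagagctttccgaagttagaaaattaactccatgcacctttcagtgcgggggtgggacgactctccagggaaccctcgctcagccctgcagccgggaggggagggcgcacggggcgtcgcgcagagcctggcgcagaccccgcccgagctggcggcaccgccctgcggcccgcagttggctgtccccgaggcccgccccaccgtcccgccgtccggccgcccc
Acadvl, chr11:70015429-70015678, minus strand: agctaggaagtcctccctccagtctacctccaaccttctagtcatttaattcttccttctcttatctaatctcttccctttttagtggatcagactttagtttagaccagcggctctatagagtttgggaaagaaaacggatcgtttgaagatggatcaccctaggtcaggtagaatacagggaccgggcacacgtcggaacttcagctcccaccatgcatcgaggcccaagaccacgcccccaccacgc

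In a window of 250 bases before to 50 after the start, 28 of the 36 members had a RefSeq promoter. Cpt2 held CCGGAAG at 113 and at 13 bases before the start, and Mlycd also held it, so that 2 of 28 members match beside 8.86% of all 32851 promoters. Etfdh held GCGCATG on both strands, at 128 and 125 bases before the start, which together form the whole palindrome, and Acad10, Acadm and Etfa held it too, beside 3.91% of all promoters. AAGGTCA was found in Acadm and Acacb, beside 4.72% of all promoters. The windows of Acadl and Acadvl held none of these letters. The direct repeat bound by PPAR and RXR had been planned too but was not searched. The NRF1 and estrogen-related receptor motifs were searched in shorter forms than planned. A match describes letters, not binding.

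Members were called on the alpha, double and direct arrays. On the alpha arrays 5 of the 30 tested members (16.7%) were higher and 4 (13.3%) lower by limma with Benjamini-Hochberg adjustment at 0.05. Of all genes 11.1% were higher and 5.36% lower there. On the double arrays 0 members were higher and 4 lower, that is 13.3% of the members against 2.54% of all genes (0.976% higher and 1.56% lower). On the direct arrays 2 members (6.67%) were higher and 5 (16.7%) lower, against 5.53% and 8.23% of all genes. The alpha knockout RNA is the numerator on the alpha arrays and the reference on the direct arrays, and the 3 groups against control share their kind of reference, so these counts are not independent. On the beta arrays no member passed, and 0.00879% of all genes passed; 7 members (23.3%) had an unadjusted p under 0.05, beside 17.0% of all genes. The median of the 30 members was 0.16 on the alpha, 0.24 on the beta, -0.35 on the double and -0.49 on the direct arrays, beside 0.09, 0.05, -0.01 and -0.09 for all genes tested. On the double arrays 25 of the 30 were below 0, and on the alpha arrays 11. With beta 3 kept, the members passing were 3 on the alpha, 0 on the beta, 1 on the double and 1 on the direct arrays. The shares of all genes in that fit are not given here. Tested as single probes, 9 of 39 member probes were higher and 5 lower on the alpha arrays, against 25.1% of all probes called in either direction. On the double arrays 0 were higher and 4 lower, against 3.01%, and on the direct arrays 4 and 11, against 19.8%. The called probes belong to 12 members on the alpha, 4 on the double and 12 on the direct arrays. Of these members, 2 on the alpha and 3 on the direct arrays had probes called in opposite directions, and 0 on the double arrays.

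**Figure D1:**
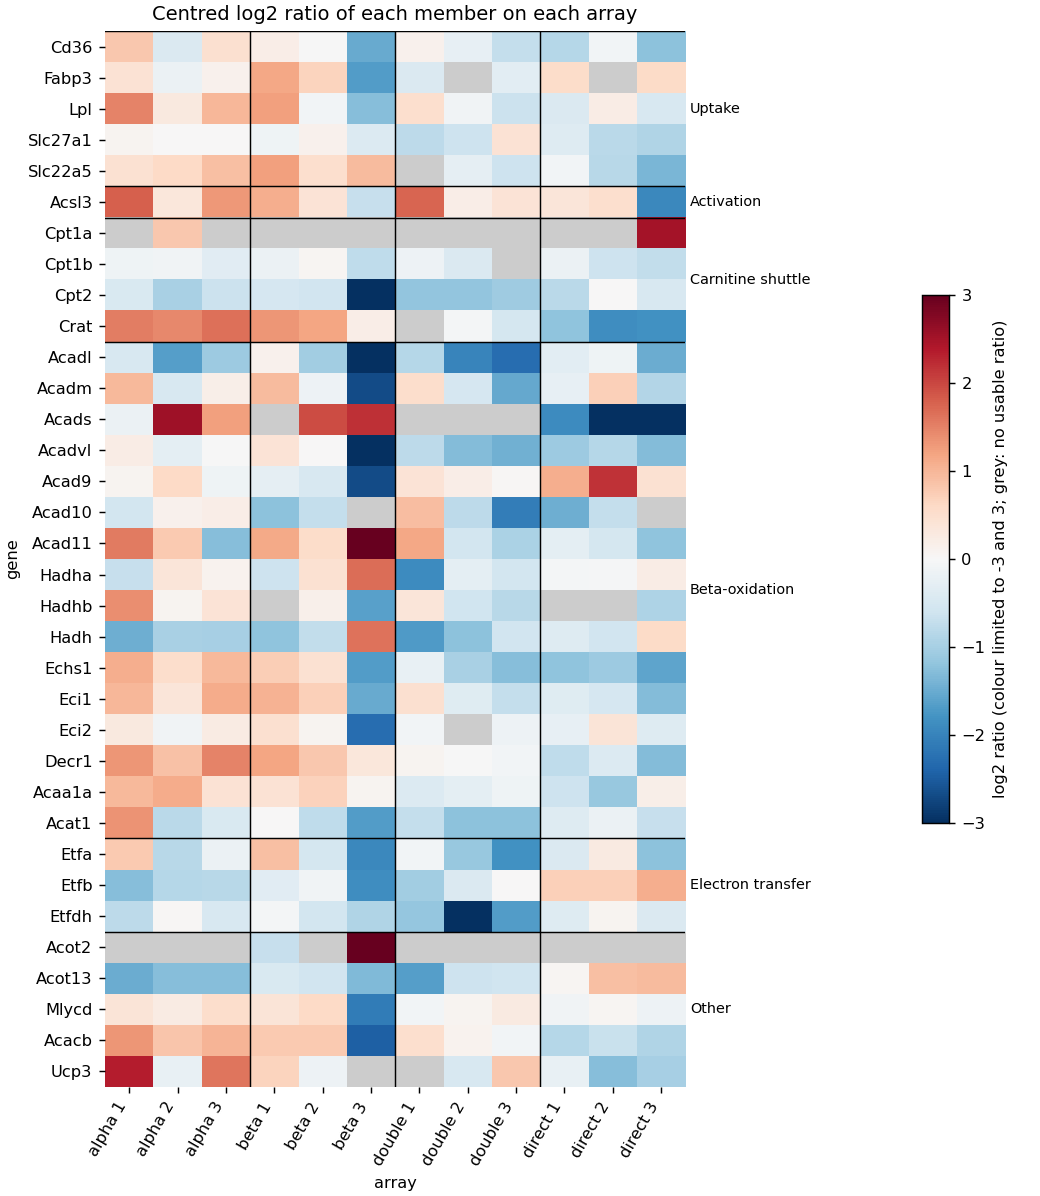
Centred log2 ratio of the 34 members with a probe (rows, by step) on the 12 arrays (columns, with beta 3 shown although it was not tested). Red is higher and blue lower in the Cy5 sample, grey has no usable ratio; Cpt2, Acadl, Acadvl and Etfdh are blue on all 3 double arrays, while Crat, Echs1, Decr1 and Acacb are red on the alpha arrays and blue on the direct arrays.

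Among the uptake genes none passed the test in any comparison. Cd36, the fatty acid translocase, was at 0.81, -0.44 and 0.49 on alpha 1 to 3, at 0.20 and -0.01 on beta 1 and 2, at 0.13, -0.25 and -0.72 on double 1 to 3 and at -0.85, -0.09 and -1.24 on direct 1 to 3. The alpha and double arrays overlap, and all direct arrays lie below 0 (mean -0.73, SE 0.29, limma adjusted p = 0.119). Its probes did not move alike: 1 rose on the alpha arrays (1.17, limma adjusted p over probes = 0.0203) and fell on the direct arrays (-1.58, adjusted p = 0.00835), while the other was at -0.61 and 0.13.

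The other uptake genes were Lpl, the lipase that releases fatty acids from lipoproteins, Fabp3, the heart and muscle fatty acid-binding protein, Slc27a1, a fatty acid transport protein, and Slc22a5, the carnitine importer. All 5 uptake genes were above 0 on the alpha and beta arrays in the mean and below 0 on the double arrays. Nearest to the threshold came Slc22a5 for non-additivity (-1.96, limma adjusted p = 0.0681) and, among the group means, Lpl with 0.93 ± 0.60 (SD, n = 3) on the alpha arrays (adjusted p = 0.0727). Single probes of these genes were called beside a second probe that was not. A Lpl probe was higher on the alpha arrays (1.34, adjusted p over probes = 0.0115) and non-additive (-3.02), with the other at 0.52 and -0.15. A Slc22a5 probe was lower on the direct arrays (-1.52, adjusted p over probes = 0.0277) and non-additive (-3.44), with the other at 0.01 and -0.47, and a Slc27a1 probe was lower on the direct arrays (-1.04, adjusted p over probes = 0.0201), with the other at -0.35. The median over the 5 was 0.28 on the alpha, 0.58 on the beta, -0.33 on the double and -0.70 on the direct arrays.

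Activation with coenzyme A was measured by 1 tested gene. Acsl3, a long-chain acyl-CoA synthetase, was at 1.79, 0.33 and 1.31 on the alpha arrays, at 1.09 and 0.41 on beta 1 and 2, at 1.75, 0.20 and 0.42 on the double arrays and at 0.37, 0.51 and -1.94 on the direct arrays. It was the only tested member above 0.5 in the mean on the double arrays (0.79, SE 0.47), but its arrays spread widely and it passed no test (limma adjusted p = 0.404 there). Acsl1, the main long-chain acyl-CoA synthetase of muscle, has no probe by the platform annotation. A probe that the authors' deposited table names Acsl1 was at 1.40, 0.67 and 0.70 on the alpha, 0.25 and 0.71 on beta 1 and 2, -0.04, 0.34 and -0.87 on the double arrays and -0.25 and -2.23 on direct 1 and 3, and it was not tested as a gene.

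The carnitine shuttle held the member with the most even fall. Cpt2, the inner-membrane carnitine palmitoyltransferase that returns acyl groups to coenzyme A inside the mitochondrion, was at -1.19, -1.19 and -1.07 on the double arrays, at -0.45, -0.98 and -0.65 on the alpha arrays, at -0.51 and -0.58 on beta 1 and 2 and at -0.81, 0.00 and -0.49 on the direct arrays. All double arrays lie below all alpha and beta arrays in use, and no array lies above 0. The fall was 2.22-fold on the double arrays (log2 -1.15, SE 0.21, limma adjusted p = 0.0205) and 1.61-fold on the alpha arrays (-0.69, SE 0.21, adjusted p = 0.0458), while the direct ratio of -0.43 did not pass (adjusted p = 0.181). Double minus alpha minus beta was 0.09, with a 95% interval of -0.77 to 0.95, so a departure from additivity in that range was not resolved. On beta 3 it was at -3.08.

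Crat, carnitine acetyltransferase, which buffers acetyl-CoA by moving acetyl groups to carnitine, lay above 0 on the alpha and beta arrays in use, where Cpt2 lay below. It was at 1.53, 1.44 and 1.66 on the alpha arrays, at 1.32 and 1.19 on beta 1 and 2, at -0.06 and -0.54 on double 2 and 3, with no usable value on double 1, and at -1.20, -1.86 and -1.81 on the direct arrays. No alpha or beta array in use overlaps a double or direct array. Crat rose 2.92-fold on the alpha arrays (log2 1.54, SE 0.21, limma adjusted p = 0.00317) and fell 3.07-fold on the direct arrays (-1.62, SE 0.21, adjusted p = 0.00372), and on the beta arrays it was at 1.26 (adjusted p = 0.0892). Its double ratio of -0.30 lay below the sum of the alpha and beta ratios, with a difference of -3.10 (limma adjusted p = 0.0134).

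Cpt1b, the muscle form of the outer-membrane carnitine palmitoyltransferase and the controlled entry step, averaged -0.19 on the alpha and -0.51 on the direct arrays only because its 2 probes cancelled. The first was at -1.73 on the alpha (limma adjusted p over probes = 0.00239) and 1.35 on the direct arrays (adjusted p = 0.00729), the second at 1.35 (adjusted p = 0.0174) and -2.37 (adjusted p = 0.00322). No direction can be given for Cpt1b on those arrays. On double 1 and 2 the probes were at -0.97 and 0.39, with no call. Cpt1a, the liver form, had a usable value on 2 of 11 arrays.

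**Figure D2:**
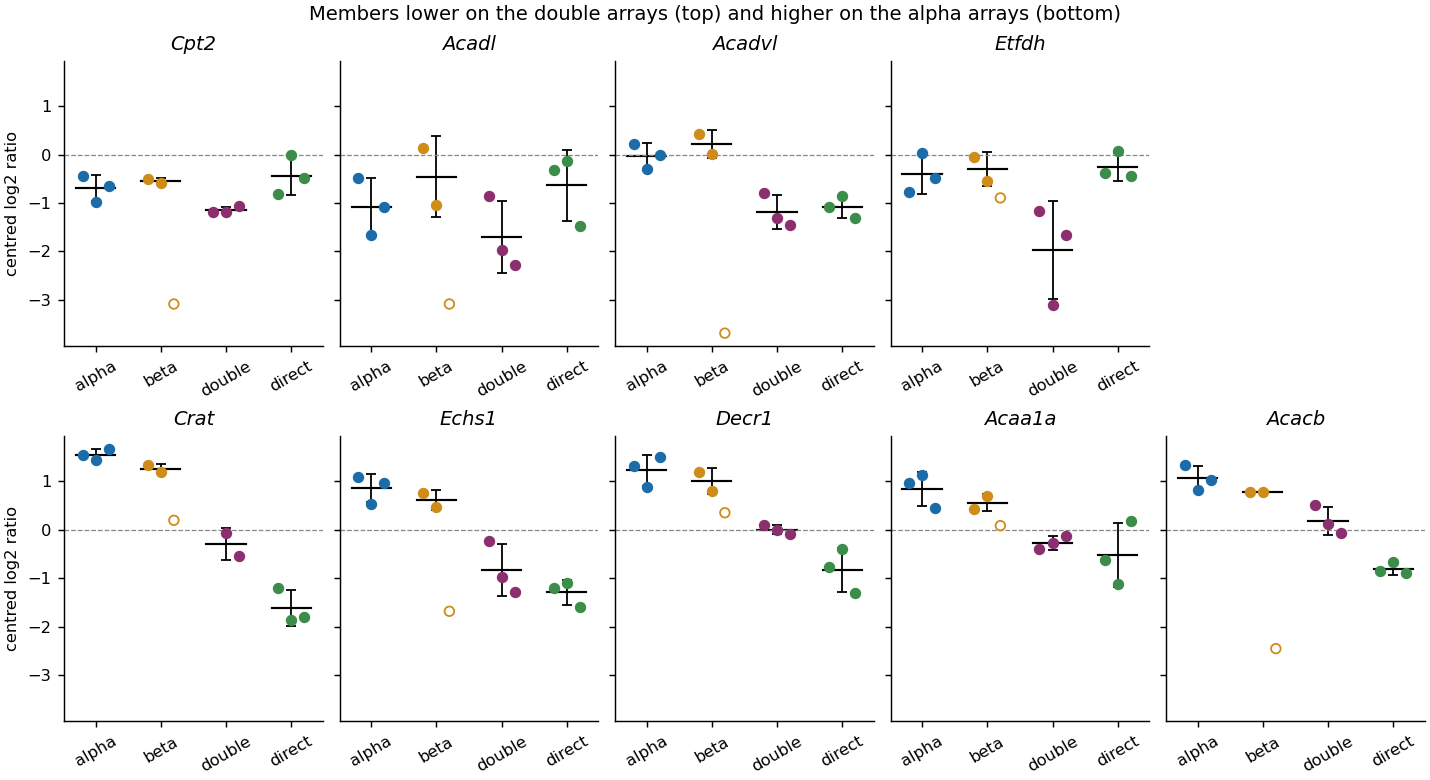
Centred log2 ratio on each array (points) for the members lower on the double arrays (top row) and higher on the alpha arrays (bottom row), with group mean (line) and SD (bars); the open circle is beta 3, not used. Cpt2, Acadl, Acadvl and Etfdh lie below 0 on every double array, while Crat, Echs1, Decr1, Acaa1a and Acacb are above 0 on every alpha array.

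Beta-oxidation begins with the acyl-CoA dehydrogenases, of which 2 fell on the double arrays. Acadl, long-chain acyl-CoA dehydrogenase, was at -0.86, -1.97 and -2.28 on the double arrays, at -0.49, -1.66 and -1.08 on the alpha arrays, at 0.13 and -1.05 on beta 1 and 2 and at -0.31, -0.12 and -1.48 on the direct arrays. All alpha and double arrays were below 0 and the groups overlap. The fall on the double arrays was 3.26-fold (log2 -1.70, SE 0.37, limma adjusted p = 0.0393), and the alpha ratio of -1.08 did not pass (adjusted p = 0.0683).

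Acadvl, very-long-chain acyl-CoA dehydrogenase, which works on the inner membrane, was at -0.79, -1.31 and -1.45 on the double arrays and at -1.09, -0.86 and -1.30 on the direct arrays. On the alpha arrays it was at 0.22, -0.30 and -0.01, and on beta 1 and 2 at 0.42 and 0.01. The double and direct arrays lie below all alpha and beta arrays in use, so both comparisons that involve the double knockout show the fall. It was 2.27-fold on the double (log2 -1.18, SE 0.21, limma adjusted p = 0.0203) and 2.12-fold on the direct arrays (-1.08, SE 0.21, adjusted p = 0.0113), beside -0.03 on the alpha arrays with a 95% interval of -0.50 to 0.44. Double minus alpha minus beta was -1.37 (adjusted p = 0.0739). Beta 3 was at -3.69.

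The other dehydrogenases gave no call on the alpha or double arrays. Acad9, best known as an assembly factor of respiratory complex I, was at 1.09, 2.16 and 0.46 on the direct arrays, at 0.42, 0.20 and 0.04 on the double, 0.08, 0.59 and -0.14 on the alpha and -0.26 and -0.49 on beta 1 and 2. It rose on the direct arrays (1.24, SE 0.29, limma adjusted p = 0.0205), but different probes carry its values on these arrays: direct 1 has only the second probe, direct 3 only the first, and on direct 2 they were at 1.09 and 3.23. The first probe alone was at 0.77 there (adjusted p over probes = 0.0581). Acadm, medium-chain acyl-CoA dehydrogenase, was at 0.22 ± 0.72 on the alpha and -0.51 ± 1.02 on the double arrays (SD, n = 3). Acad10 and Acad11 were not called, and Acads, the short-chain enzyme, had no usable value on any double array.

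The hydration and second dehydrogenation steps included Echs1, the short-chain enoyl-CoA hydratase. It was at 1.09, 0.53 and 0.97 on the alpha arrays, at 0.75 and 0.46 on beta 1 and 2, at -0.23, -0.98 and -1.28 on the double arrays and at -1.20, -1.10 and -1.59 on the direct arrays. Every alpha and beta array in use lies above 0 and every double and direct array below. It rose 1.82-fold on the alpha arrays (log2 0.86, SE 0.24, limma adjusted p = 0.0334) and fell 2.45-fold on the direct arrays (-1.29, adjusted p = 0.00914); the double ratio of -0.83 did not pass (adjusted p = 0.0974).

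Hadh, the 3-hydroxyacyl-CoA dehydrogenase for shorter chains, was called lower on the alpha arrays (-1.48, -0.97 and -1.002; mean -1.15, SE 0.28, limma adjusted p = 0.0205), and its probes contradict each other. The first was at 0.87, 1.02 and 1.36 on the alpha arrays and the second at -3.83, -2.96 and -3.36. On the direct arrays the first was at -1.77, -2.52 and -2.23 and the second at 0.99, 1.39 and 3.40. Both pairs passed the test over probes in opposite directions, so no direction can be given for Hadh on the alpha or direct arrays. The gene was at -1.22 and -0.74 on beta 1 and 2 and at -0.39, -0.57 and 0.58 on the direct arrays. On the double arrays it was at -1.69, -1.23 and -0.57 (adjusted p = 0.0558), with probe means of -0.89 and -1.44.

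Hadha, the alpha subunit of the trifunctional protein that handles long chains, was at -0.91 on the double arrays (SE 0.33, limma adjusted p = 0.182), with double 1 at -1.89 and the other two at -0.29 and -0.54. On the direct arrays the gene was at 0.05, a mean of probes that did not move alike. The first was called lower (-1.26, limma adjusted p over probes = 0.0211), the second was at 1.36 (adjusted p = 0.0693) and the third at 0.04. On the double arrays these probes were at -1.03, -1.81 and -0.02, with no call. The value on double 1 averages the second at -3.22 and the third at -0.56. Hadhb, the partner of Hadha, had usable values on 8 of 11 arrays and was not tested. Among the helper enzymes for unsaturated chains, Decr1, 2,4-dienoyl-CoA reductase, was at 1.32, 0.87 and 1.49 on the alpha arrays, at 1.19 and 0.80 on beta 1 and 2, at 0.09, -0.01 and -0.09 on the double arrays and at -0.77, -0.41 and -1.30 on the direct arrays. As means over the probes, the alpha and beta arrays in use, the double and the direct arrays form 3 ranges that do not overlap. Decr1 rose 2.34-fold on the alpha arrays (log2 1.23, SE 0.22, limma adjusted p = 0.00700) and fell 1.77-fold on the direct arrays (-0.83, SE 0.22, adjusted p = 0.0341). Its 2 probes were at 0.61 or more on every alpha array, and on direct 1 and 3 only the first gave a value. That first probe was at -0.67 on double 3 and -0.30 on direct 2, so by it the double and direct arrays overlap. Its direct ratio of -0.79 was not called (limma adjusted p over probes = 0.0767).

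Eci1 and Eci2, the enoyl-CoA isomerases, passed no test; Eci1 was at 0.82 ± 0.40 on the alpha and at -0.72 ± 0.51 on the direct arrays (SD, n = 3). Of the thiolases, Acaa1a, a peroxisomal enzyme, was at 0.97, 1.12 and 0.44 on the alpha arrays, at 0.43 and 0.69 on beta 1 and 2, at -0.41, -0.28 and -0.13 on the double arrays and at -0.62, -1.13 and 0.19 on the direct arrays. It was called higher on the alpha arrays (0.84, SE 0.26, limma adjusted p = 0.0462). There 1 of its 3 probes carried the rise at 4.09, 2.11 and 1.97 and the others were at or below 0.12. On the direct arrays that probe was called lower (-2.04, limma adjusted p over probes = 0.0111) and another higher (0.94, adjusted p = 0.0310). No direction can be given for Acaa1a on the direct arrays. Mouse has a closely similar gene, Acaa1b, and whether the probes read it too was not tested. Acat1, the mitochondrial acetoacetyl-CoA thiolase, was at -0.72, -1.23 and -1.23 on the double arrays and passed no test. Acaa2, the mitochondrial thiolase, was not analysed here array by array; in the authors' deposited table the 10 entries of 1 probe have median mean ratios of 0.905 for the alpha, 1.26 for the beta and 0.565 for the double knockout, on a linear scale without centring.

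Electron transfer was lowest on the double arrays of all steps, with a median of -1.02 over its 3 genes, beside -0.41 on the alpha, -0.23 on the beta and -0.25 on the direct arrays. Etfdh, the dehydrogenase that passes electrons from the flavoprotein to ubiquinone, was at -1.16, -3.10 and -1.67 on the double arrays, at -0.77, 0.04 and -0.48 on the alpha arrays, at -0.06 and -0.54 on beta 1 and 2 and at -0.39, 0.08 and -0.44 on the direct arrays. All double arrays lie below every other array in use. The fall was 3.93-fold (log2 -1.97, SE 0.33, limma adjusted p = 0.0144). Its size rests partly on 1 probe at -4.86 on double 2; the probe usable on all double arrays was at -1.28, -1.35 and -1.67 (mean -1.43, adjusted p over probes = 0.0251).

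Etfa and Etfb encode the 2 subunits of the flavoprotein itself. Etfa was at 0.79, -0.84 and -0.19 on the alpha arrays, at 0.90 and -0.54 on beta 1 and 2, at -0.08, -1.14 and -1.82 on the double arrays and at -0.45, 0.28 and -1.23 on the direct arrays. It spread widely and passed no test (double -1.02, SE 0.43, limma adjusted p = 0.232). Etfb was at 0.72, 0.72 and 1.10 on the direct arrays, at -1.29, -0.85 and -0.83 on the alpha arrays, -0.34 and -0.11 on beta 1 and 2 and -1.03, -0.44 and 0.02 on the double arrays. It fell 1.99-fold on the alpha arrays (log2 -0.99, SE 0.23, adjusted p = 0.0172) and rose 1.80-fold on the direct arrays (0.85, SE 0.23, adjusted p = 0.0354). On alpha 2 the subunits were alike, at -0.84 and -0.85, and the 95% interval of Etfa on the alpha arrays, -1.01 to 0.86, holds the Etfb mean; a difference between them was not tested.

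Of the remaining genes, Acot13, a thioesterase that releases free acids from acyl-CoA, was at -1.50, -1.28 and -1.27 on the alpha arrays, at -0.46 and -0.56 on beta 1 and 2, at -1.64, -0.62 and -0.59 on the double arrays and at 0.05, 0.90 and 0.94 on the direct arrays. It lay below 0 on all 8 arrays against control RNA and above 0 on the direct arrays. It fell 2.55-fold on the alpha arrays (log2 -1.35, SE 0.26, limma adjusted p = 0.00841) and the double ratio of -0.95 did not pass (adjusted p = 0.0827).

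Acacb, the acetyl-CoA carboxylase that makes the malonyl-CoA restraining carnitine palmitoyltransferase 1, was at 1.33, 0.82 and 1.03 on the alpha arrays, at 0.78 and 0.78 on beta 1 and 2, at 0.50, 0.11 and -0.08 on the double arrays and at -0.86, -0.66 and -0.90 on the direct arrays. It rose 2.09-fold on the alpha arrays (log2 1.06, SE 0.20, limma adjusted p = 0.00767) and fell 1.75-fold on the direct arrays (-0.81, SE 0.20, adjusted p = 0.0243). Its second probe was usable on the direct arrays alone. Mlycd, which removes malonyl-CoA, stayed between -0.15 and 0.60 on the arrays in use and Ucp3, an uncoupling protein of muscle, ranged from -1.28 to 2.36; neither passed a test. Acot2 had a usable value on 1 of 11 arrays.

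**Figure D3:**
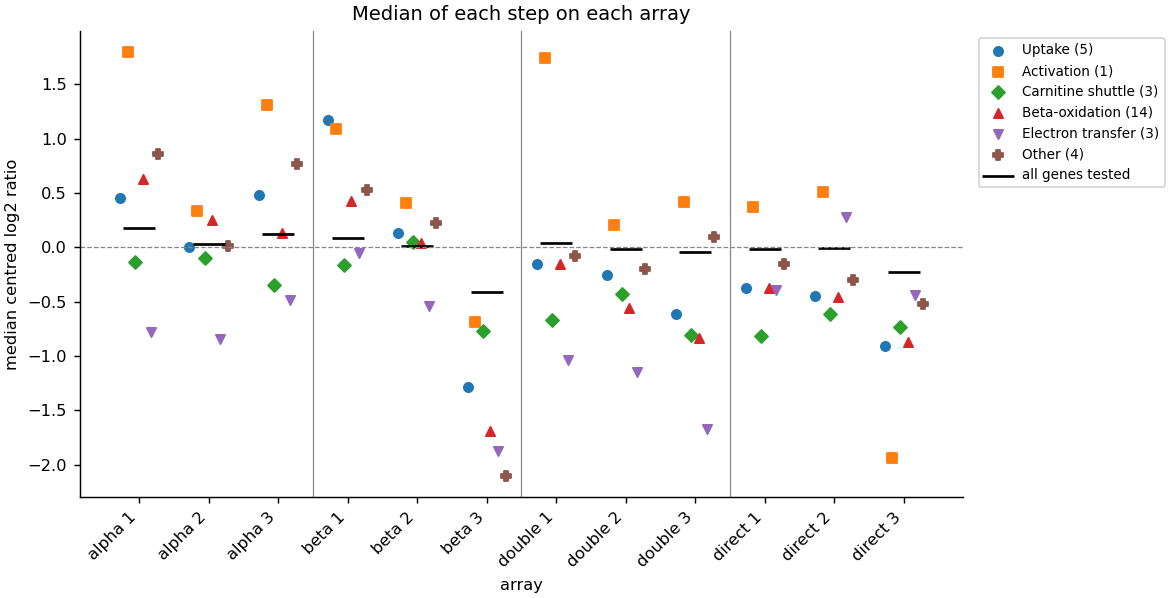
Median centred log2 ratio of the tested members of each step (symbols, number of genes in brackets) and of all genes tested (black bars) on each of the 12 arrays. Electron transfer genes have the lowest median on every double array, and the uptake, shuttle and beta-oxidation medians lie below that of all genes on every double and direct array.

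The double knockout was compared with the alpha knockout by 2 routes, directly on the same arrays and as the double minus the alpha arrays through the control. The direct ratio minus that difference passed in 0 of the 30 members, and in 0% of all genes, with limma; 3 members (10%) had an unadjusted p under 0.05, beside 3.61% of all genes. The direct ratio was the higher in 23 of the 30, with a median excess of 0.24 beside 0.07 for all genes. The routes put Acadvl at -1.08 directly and -1.15 by difference, Crat at -1.62 and -1.84, Echs1 at -1.29 and -1.69 and Etfdh at -0.25 and -1.57. Etfdh is thus called lower against control RNA and not directly, a difference that itself did not pass (1.32, adjusted p = 1.00). The intervals of this contrast are wide, from 0.70 to 1.91 on either side.

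**Figure D4:**
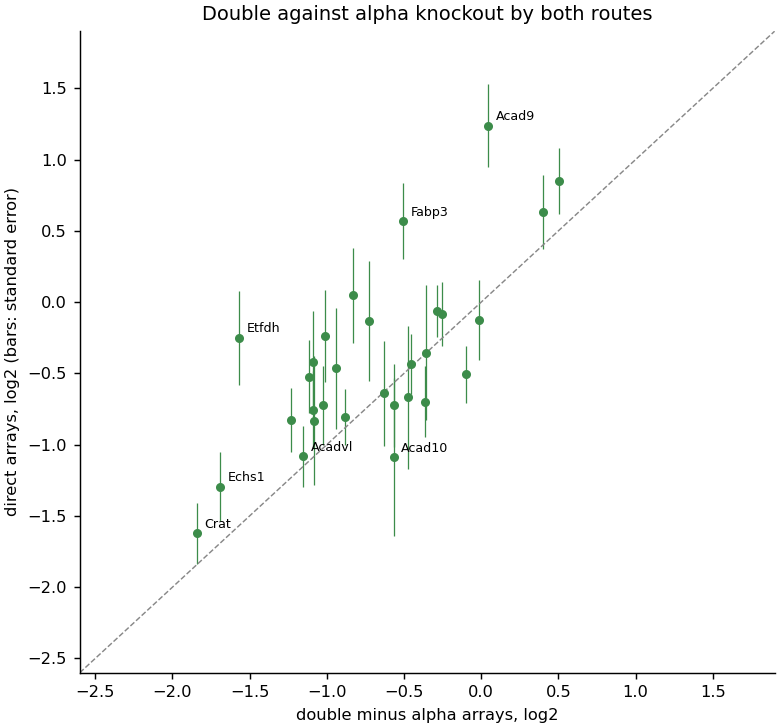
Direct ratio of double against alpha knockout (vertical axis, log2, bars are standard errors) against the double minus the alpha arrays (horizontal axis, log2) for the 30 tested members; the dashed line marks equal values. Most points lie above the line, Acad9, Fabp3 and Etfdh farthest, while Acadvl, at -1.08 and -1.15, lies close to it.

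Whether the double knockout gave the sum of both single responses was tested by subtracting the alpha and the beta ratio from the double ratio. Crat (-3.10), Echs1 (-2.29), Decr1 (-2.23) and Acacb (-1.67) fell short of the sum, and 0 members exceeded it, against 4.82% of all genes in limma's test of the same contrast (3.53% below and 1.29% above). In each of the 4 both single knockouts averaged 0.60 or more and the double between -0.83 and 0.18. Decr1, for example, was at 1.23 on the alpha and 1.00 on the beta arrays and within 0.09 of 0 on the double arrays. That nearness to 0 is a mean of 2 probes of opposite sign. The first was at 0.41, -0.27 and -0.67 on double 1 to 3 and the second at -0.23, 0.25 and 0.48. The first probe alone was non-additive too (-2.39, limma adjusted p over probes = 0.0261). None of the 4 members that fell on the double arrays was among them. The double minus the beta arrays gave no call among members, with 8 (26.7%) at an unadjusted p under 0.05, beside 8.12% of all genes, and 0.00879% of all genes called. No member was called non-additive when alpha 3, beta 1, beta 2, double 2 or double 3 was left out, 1 was without alpha 1, and 7 were without double 1 or without direct 3. The shares of all genes in these fits are not given here, so the counts alone do not set members apart from other genes.

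The array factor moved with many of these values. Of the 30 tested members, 7 had all their values on the 5 arrays of factor above 1 (double 2, double 3 and the direct arrays) below all their values on the other 6, which was so for 11.5% of all genes. These were Slc22a5, Crat, Acadvl, Echs1, Eci1, Decr1 and Acacb, and 0 members showed the reverse, against 7.05% of all genes. Crat, for example, was at 1.19 or more on the arrays of lower factor and at -0.06 or less on the others. All 4 non-additive members are among the 7.

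With the log2 factor as a covariate in the limma fit, the 4 falls on the double arrays passed again. The members' calls on the alpha and direct arrays and for non-additivity did not. Passing again is a weak check, because the double arrays have both low and high factors and their ratios moved little. Cpt2 went from -1.15 to -1.14, Acadl from -1.70 to -1.49, Acadvl from -1.18 to -1.09 and Etfdh from -1.97 to -1.93. The same limit applies further on to genes measured on all 3 double arrays. Other settings ended the 4 falls, as given further on. On the double arrays 7 members were lower and 0 higher, against 2.81% of all genes lower. They were Cpt2 at -1.14 (adjusted p = 0.0173), Acadl at -1.49 (0.0196), Acadvl at -1.09 (0.0118) and Etfdh at -1.93 (0.0157). Besides them came Hadha at -1.09 (0.0469), Hadh at -1.32 (0.0104) and Acot13 at -1.05 (0.0352). The Hadha mean joins probes that did not move alike, at -1.03, -1.81 and -0.02 without the factor. On the alpha arrays only Acadl was called, at -1.89 (adjusted p = 0.0383, beside 0.888% of all genes lower), and on the direct arrays and for non-additivity 0 members were called, against 1.42% and 0% of all genes. Crat on the alpha arrays was then at 1.33 (adjusted p = 0.0718), Decr1 at 1.03 (0.0787) and Acacb at 0.79 (0.0881). For non-additivity Crat was at -2.52 (from -3.10), Decr1 at -1.82 (from -2.23), Echs1 at -1.29 (from -2.29) and Acacb at -1.10 (from -1.67), and on the direct arrays Crat was at -1.33 (from -1.62) and Acadvl at -0.63 (from -1.08), so these calls were lost with the ratios still below 0. The fit also holds a mean for each group, so the slope on the factor comes from arrays within groups. It rests mostly on the double arrays, whose factors run from 0.356 to 5.7. The alpha and beta arrays have low factors and the direct arrays high ones, so their ratios are shifted along that slope with added error. The loss of those calls therefore does not show that the factor made them. The part of the factor in the results was not otherwise tested.

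Double 1 is the double array whose factor, 0.356, is within the range of the alpha arrays up to their highest of 0.357. On it 13 of the 27 members with a value (48.1%) lay below every alpha array, as did 33.6% of all genes. Among them were Cpt2 at -1.19 against -0.98 or more, Acadvl at -0.79 against -0.30 or more, Etfdh at -1.16 against -0.77 or more, Echs1 at -0.23 against 0.53 or more, Decr1 at 0.09 against 0.87 or more and Acacb at 0.50 against 0.82 or more. Acadl at -0.86 lay within its alpha range. This is 1 array, so it carries no test.

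**Figure D5:**
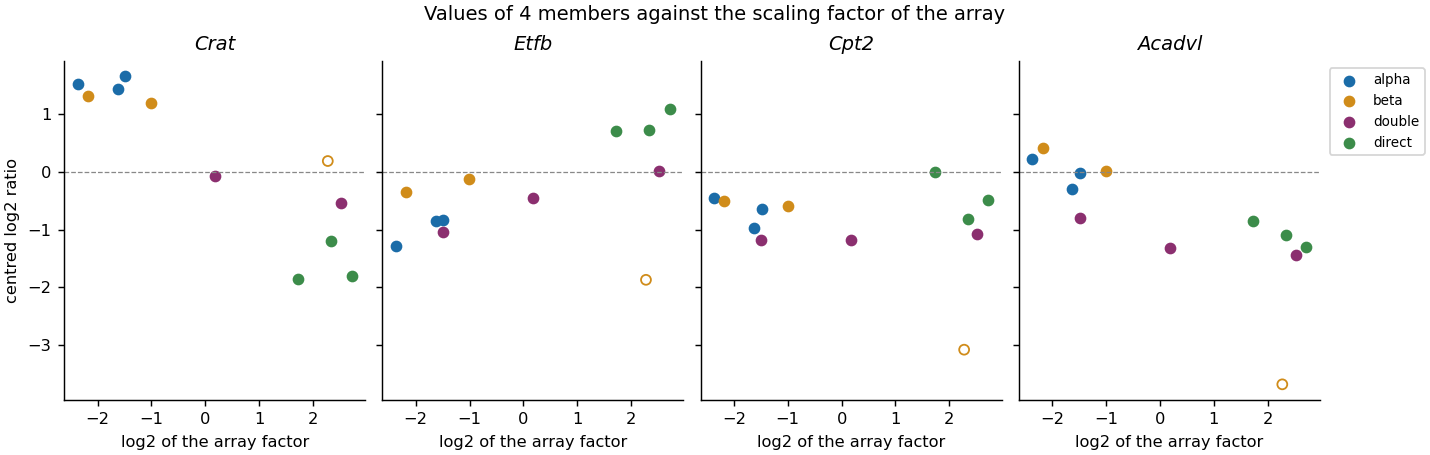
Centred log2 ratio of 4 members (vertical axis) against the log2 of the array's scaling factor (horizontal axis), coloured by group; open circles are beta 3, not used. Crat and Acadvl run downward and Etfb upward along the factor, whereas Cpt2 on the double arrays keeps to between -1.19 and -1.07 at all 3 factors.

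The fall on the double arrays also depended on settings and single arrays. No member was called there without centring, with dim or equal signals kept, with a dye term or with groups by the channel labels. Cpt2 then lay between -1.60 and -1.15, Acadl between -2.15 and -1.69, Acadvl between -1.71 and -1.19 and Etfdh between -3.29 and -1.01, with adjusted p of 0.0511 or more. Without double 2 no member passed there and without double 3 only 1 did, while leaving out any other array left 3 to 5. Acadvl stayed called in 9 of the 11 such fits, Etfdh in 10, Cpt2 in 8 and Acadl in 4, always below 0. The number called on the alpha arrays was 2 without alpha 1, 5 without alpha 2 and 1 without alpha 3, and on the direct arrays it was 3 without direct 2 and 2 without direct 3. The shares of all genes called in the fits of this paragraph are not given here.

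Lists beyond the 36 members held further genes of the pathway. Of 16 tested genes of mitochondrial oxidation, 0 were higher and 2 lower on the double arrays. Of all genes 0.976% were higher and 1.56% lower on the double arrays. These shares were 5.53% and 8.23% on the direct and 11.1% and 5.36% on the alpha arrays. They apply to the lists below as well, and counts in lists this short were not tested against them. Acad8, isobutyryl-CoA dehydrogenase of valine breakdown, was at -2.07 and -2.32 on double 2 and 3 (mean -2.20, limma adjusted p = 0.0195, and 0.0712 with the factor as covariate), and Echdc3 was at -0.85 (adjusted p = 0.0496, and 0.0350 with the factor). On the direct arrays 3 of the 16 were lower, Ivd, isovaleryl-CoA dehydrogenase, at -1.49, Bdh1, a ketone body dehydrogenase, at -0.96 and Slc25a20, the carnitine-acylcarnitine translocase, at -0.82, and Mcee was higher at 0.70. Acot9 rose on the alpha arrays (1.35) and Mcee (-0.93) and Echdc3 (-0.86) fell there. Slc25a20 (-1.77) and Acad8 (-2.51) were called non-additive. Of 8 tested uptake and activation genes, Got2, an aminotransferase also described as a fatty acid-binding protein of the plasma membrane, rose on the alpha arrays (1.23), fell on the direct arrays (-1.79) and was non-additive (-3.14), and Dbi, an acyl-CoA-binding protein, rose on the direct arrays (0.88). With the factor as covariate none of the calls of Got2, Dbi, Ivd, Bdh1 and Slc25a20 passed, but their ratios moved unequally. Dbi was then at 1.26 on the direct arrays (adjusted p = 0.0819), Slc25a20 at -0.76 there and -1.67 for non-additivity, and Got2 at 0.82 on the alpha arrays, -1.25 on the direct arrays and -2.26 for non-additivity. Ivd was at -0.93 and Bdh1 at -0.20 on the direct arrays. Acot9 at 0.52, Mcee at -0.885 and Echdc3 at -0.83 on the alpha arrays were not called with the factor either. Neither were Mcee on the direct arrays (0.64) and Acad8 for non-additivity (-0.74).

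Of 14 tested peroxisomal genes 1 fell on the double arrays, Phyh, the hydroxylase of branched phytanic acid, at -1.21, -1.98 and -1.85 (limma adjusted p = 0.0129, and 0.0101 with the factor as covariate). Phyh also fell on the alpha arrays (-1.12), as did Amacr (-0.86), while Pex19, a peroxisome biogenesis factor, rose there (0.77) and fell on the direct arrays (-1.34). Of 9 tested genes of fatty acid synthesis 0 were called on the double arrays. The desaturase gene Scd1 fell on the direct arrays (-0.96). Mecr of mitochondrial fatty acid synthesis rose on the alpha (1.25) and fell on the direct arrays (-2.27), with Elovl5 (0.96) and Mcat (0.82) also higher on the alpha arrays. With the factor as covariate Phyh was called on the alpha arrays too (-1.55, limma adjusted p = 0.0435). The other alpha and direct calls of this paragraph did not pass then, though each ratio kept its sign. Pex19 on the direct arrays came nearest (-1.39, adjusted p = 0.0595), and Mecr on the alpha arrays was at 0.70 (0.367).

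Of 16 tested regulators, Esrra, which encodes estrogen-related receptor alpha, was at -1.60, -0.55 and -1.64 on the double arrays. It fell there (mean -1.26, limma adjusted p = 0.0370, and 0.0350 with the factor as covariate) and on the direct arrays (-1.26, adjusted p = 0.0145, and 0.157 with the factor), and was at 0.05 on the alpha arrays. Nrf1 rose on the double arrays (1.29, adjusted p = 0.0298, and 0.0219 with the factor), with 1.19 and 1.39 on double 1 and 2 and no value on double 3. It fell on the direct arrays (-1.02), and with the factor it was at -1.31 there without a call (adjusted p = 0.148). On the alpha arrays Nrf1 was at 0.46, below the double arrays, so the direct ratio has the opposite sign. The difference between these routes was -1.85, also without a call. Prkaa2, a catalytic subunit of AMP-activated kinase, rose on the alpha (2.05) and fell on the direct arrays (-2.31) and was non-additive (-3.48), and with the factor these were at 1.68 (adjusted p = 0.0520), -1.83 (0.0663) and -2.69 (0.198). On the alpha arrays the corepressor gene Nrip1 (1.36), the coactivator gene Pprc1 (1.21) and Ppargc1b itself (1.13) also rose. On the direct arrays Gabpa (-1.55) and Ppargc1b (-1.11) fell. With the factor none of these passed. Nrip1 was then at 1.26 (limma adjusted p = 0.160), Pprc1 at 0.77 (0.357) and Ppargc1b at 1.18 (0.134) on the alpha arrays. Gabpa was at -1.48 (0.131) and Ppargc1b at -1.17 (0.180) on the direct arrays.

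Markers of the cell types of muscle were compared by the same fit. On the double arrays no marker of fibres, endothelium, fat cells, leukocytes, fibroblasts, nerve or red blood cells was called, and their list medians lay between -0.35 (nerve) and 0.34 (fat cells); fibre markers had a median of 0.22 over 8 tested genes. On the alpha arrays the fibre markers Acta1 (1.07) and Mb (1.29) and the red cell marker Hba-a1 (0.95) rose and the nerve marker S100b fell (-1.59). Mb, which encodes myoglobin, was at 1.21 on the beta and -0.37 on the double arrays, and so was called non-additive like the 4 members above (-2.87, limma adjusted p = 0.0153); with the factor as covariate it was at -2.13 (adjusted p = 0.187). On the direct arrays Acta1 (1.91), Myh2 (1.43) and Tnnt3 (1.43) of fibres rose and 3 of 6 endothelial markers fell (Cdh5 at -1.15, Cldn5 at -1.88 and Esam at -0.71), with a list median of -0.84, beside 8.23% of all genes lower. With the factor as covariate Acta1 was called on the alpha arrays (1.58, adjusted p = 0.0345) and Tnnt3 on the direct arrays (1.71, 0.0429). Acta1 was then at 1.25 on the direct arrays (0.0824) and Myh2 at -0.05 (0.956), and Cdh5, Cldn5 and Esam were at -1.40, -0.87 and -0.63 without a call. Mb, Hba-a1 and S100b, at 0.93, 0.71 and -1.48 on the alpha arrays, were not called either. The part of these cell types in the members' ratios was not tested.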

How the data were processed

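Gastrocnemius RNA was measured on 12 two-dye Agilent arrays. The value table deposited by the authors gives a linear ratio, Cy5 over Cy3, for each probe on each array, with 3 decimals; from the values, it is a ratio of whole numbers multiplied by 1 factor per array. How background was corrected and arrays were scaled is not given in the sources used here. The authors' deposited up and down tables hold mean ratios against controls. Columns of the value table belong to the 12 arrays.

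The design had taken the table for normalized values; instead log2 was taken of ratios above 0, leaving out the repeated maximum of each array (1e+05 times its factor) and ratios equal to a fraction whose parts are whole numbers of at most 10, as dim or equal signals give (tolerance 6e-04). Each array was centred on its median gene, and probes with 1 symbol (32443 of 40928) were averaged per gene. limma 3.58.1 in R 4.3.3 fitted 4 group means with 1 spread over 11 arrays, for genes with a value on 2 or more arrays of every group, two-sided, with Benjamini-Hochberg adjustment over all genes at 0.05; it was tested on simulated data. The number of arrays limits precision. Single probes were fitted in the same way, and alternatives are in the closing section. All 36 members were matched to RefSeq. Members and lists were chosen with earlier results of these data known. Array values are given for members passing any test and 1 member per step, and of other lists for at most 4 called genes per comparison.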

Additional observations from a re-analysis of the deposited data

Results flagged for a closer look

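The departures from additivity of 4 members stand out because the response of the double knockout differed from the sum of both single knockouts by the interaction contrast itself. Crat was at 1.54 on the alpha, 1.26 on the beta and -0.30 on the double arrays, which leaves -3.10 (limma adjusted p = 0.0134). Echs1 was at 0.86, 0.60 and -0.83, which leaves -2.29 (adjusted p = 0.0242). Decr1 was at 1.23, 1.00 and -0.0044, which leaves -2.23 (adjusted p = 0.0211), and Acacb was at 1.06, 0.78 and 0.18, which leaves -1.67 (adjusted p = 0.0334). All 4 have values on the arrays of factor above 1 that lie below those on all other arrays, and with the factor as covariate they were at -2.52, -1.29, -1.82 and -1.10 and none passed (adjusted p = 0.205, 0.296, 0.223 and 0.331), in a fit that called 0% of all genes on this contrast.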

How the results depend on the processing

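The members called were 9 on the alpha, 0 on the beta, 4 on the double and 7 on the direct arrays, 0 for double minus beta, 4 for non-additivity and 0 for direct minus double plus alpha. In that order, and only where they moved by over 1.5 times, the counts were as follows. Without centring they were 0 (alpha), 0 (double) and 0 (non-additivity), and with groups by the channel labels, or with 12 arrays, dim signals and no centring, 0 on the alpha, double and direct arrays and for non-additivity. Keeping beta 3 gave 3, 1, 1 and 0 for these, and a dye term 2, 0, 0 and 8. Keeping dim or equal signals gave 0 on the double arrays and 1 for non-additivity, and scaling arrays to the same spread 2 on the beta arrays and 7 for non-additivity. Settings chosen after seeing the data gave, with array weights, 16 on the alpha, 1 on the beta and 12 on the double arrays, 3 for double minus beta and 14 for non-additivity (53.3%, 3.33%, 40.0%, 10% and 46.7% of the members, beside 50.8%, 2.95%, 26.3%, 1.2% and 29.6% of all genes); with the factor as covariate, 1 on the alpha, 7 on the double and 0 on the direct arrays and 0 for non-additivity; and with single probes, 12 on the direct arrays and 9 for non-additivity. The cause of these moves was not tested. Leaving out 1 array gave 1 to 12 on the alpha, 0 to 5 on the double and 2 to 7 on the direct arrays, 0 to 7 for non-additivity and 0 to 0 for the rest. Kept dim signals moved the shuttle median to 0.028 on the alpha, 0.17 on the beta and -0.67 on the direct arrays, that of the side reactions to -0.050 on the double arrays, those of uptake and beta-oxidation to 0.50 and 0.38 on the alpha arrays, and that of electron transfer to 0.001 on the beta and -0.45 on the direct arrays (-0.16 there with the median of a gene's probes). Of 24 member calls 1 turned its direction, Acacb for non-additivity, at 0.16 with 12 arrays, dim signals and no centring; of the recalculated calls 343 held and 223 kept only their direction. Replicate numbers of the titles did not pair the arrays by the rule used: of 15 same-numbered pairs 9 had deviations correlated over 0.1 (lowest -0.33, highest 0.48), although 9 of 11 arrays correlated best with their own number. Every same-numbered pair among the alpha, beta and double arrays was at 0.12 or more, and all pairs not over 0.1 held a direct array. On direct arrays the alpha RNA is the reference, so an alpha sample shared with an alpha array would lower the correlation. The rule cannot show such pairing of alpha and direct arrays. This does not bear on the pairs without an alpha array. These were beta 1 with direct 1 at 0.036, beta 2 with direct 2 at -0.31 and double 2 with direct 2 at 0.005. The deviations of beta 1 and beta 2 are mirror images, so their pairs are not separate evidence. A pairing by number remains possible. With the replicate number as a block, 11, 0, 5, 7, 0, 4 and 0 members were called. Apart from array weights, the counts in this section stand without the share of all genes called in the same fit. Alone they do not show whether the members moved more than other genes.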
